A study of Mus musculus with 6 samples.

Results

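Apolipoproteins are the proteins of plasma lipoprotein particles, and 10 of their genes were followed here in mouse liver: Apoa1, Apoa2, Apoa4, Apoa5, Apob, Apoc1, Apoc3, Apoc4, Apoe and Apom. They were chosen by name, and all 16 probe sets of the array annotated with exactly 1 of these symbols were taken, out of 45037 probe sets and 18193 named genes in all. Apoa1 had 4 probe sets, Apoa4, Apob and Apom had 2 each, and the other 6 genes had 1 each. No probe set with several symbols named a member. The livers came from Mir137-/- mice, in which the gene of the microRNA miR-137 was deleted in the whole body, and from Mir137+/+ mice, all untreated, at postnatal day 14. The deletion was made by Cre in embryonic stem cells of another strain than C57BL/6. Chimeras were crossed to C57BL/6 mice before heterozygotes were intercrossed to give both genotypes. Whether the mice on the arrays were littermates is not given in the sources used here. Each genotype had 3 arrays with 1 mouse per array, and the labels call them biological replicates. The comparison asks how much of each apolipoprotein transcript the liver holds when miR-137 is missing from every tissue.

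The liver makes most of the apolipoproteins in blood. Apob forms the backbone of very low density lipoprotein, a single copy of which stays with each particle, whereas Apoa1 and Apoa2 build high density lipoprotein and the small exchangeable apolipoproteins move between particles. Apoc3 slows and Apoa5 promotes the lipolysis of triglyceride by lipoprotein lipase, and Apoe is a ligand for receptor uptake of remnants. Several of the genes lie side by side: on chromosome 9 the coding genes run Apoa1, Apoc3, Apoa4, Apoa5, and on chromosome 7 they run Apoc2, Apoc4, Apoc1, Apoe. Apoa2, Apob and Apom lie apart from these clusters on chromosomes 1, 12 and 17 (order and chromosomes from the RefSeq gene table, GRCm38.p6).

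The deleted microRNA is shown first, since its absence defines the knockout. Its own level was not analysed here, so the genotype labels were not checked against it. Its hairpin gives a mature RNA from each arm, at chr3:118433865-118433887 and chr3:118433901-118433923 on the plus strand (RefSeq, GRCm38.p6). The capitals mark the seed, bases 2 to 8 from the 5′ end, which differs between the arms.
mmu-miR-137-5p: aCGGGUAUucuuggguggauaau
mmu-miR-137-3p: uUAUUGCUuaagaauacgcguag

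The promoters of 3 neighbours on chromosome 9 are shown because these genes lie in 1 cluster and gave unlike differences. Each is RefSeq sequence of GRCm38.p6 from 250 bases before to 50 bases after a transcription start, on the plus strand, at chr9:46228380-46228679 for Apoa1, chr9:46240594-46240893 for Apoa4 and chr9:46268358-46268657 for Apoa5. Capitals mark the letters TATAAA, which stood once in the Apoa5 promoter, 31 bases before the start, and in neither of the other two.
Apoa1: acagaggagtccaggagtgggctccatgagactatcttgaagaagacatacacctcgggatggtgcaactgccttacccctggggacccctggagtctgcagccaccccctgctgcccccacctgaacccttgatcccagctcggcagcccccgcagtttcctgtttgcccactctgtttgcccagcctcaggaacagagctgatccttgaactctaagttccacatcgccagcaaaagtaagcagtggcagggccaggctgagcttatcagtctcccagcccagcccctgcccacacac
Apoa4: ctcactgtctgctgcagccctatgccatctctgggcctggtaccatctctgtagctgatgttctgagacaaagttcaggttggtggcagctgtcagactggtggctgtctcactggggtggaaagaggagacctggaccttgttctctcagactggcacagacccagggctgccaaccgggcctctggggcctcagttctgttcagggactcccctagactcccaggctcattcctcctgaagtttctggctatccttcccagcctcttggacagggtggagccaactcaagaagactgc
Apoa5: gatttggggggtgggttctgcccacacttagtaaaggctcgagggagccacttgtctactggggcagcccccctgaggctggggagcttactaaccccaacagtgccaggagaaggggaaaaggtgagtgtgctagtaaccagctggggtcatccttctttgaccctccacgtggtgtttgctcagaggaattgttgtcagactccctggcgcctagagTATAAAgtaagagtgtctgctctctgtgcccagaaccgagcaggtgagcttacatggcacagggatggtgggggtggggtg

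Short motifs were looked for on both strands in the 12 promoters that the table held for 8 of the 10 genes: CAAAGTC and AGGTCA, letters of nuclear receptor sites, TGACGT, letters of CREB-type sites, CCAAT, and TATAAA of the TATA box. Apoc3 and Apoc1 had no promoter there and were not searched. None of the 12 promoters held CAAAGTC or TGACGT, which 4.44% and 7.51% of all 32851 promoters held. AGGTCA stood in 2 promoters, of Apoa2 and Apoc4 (16.3% of all), and CCAAT in 3 (37.4% of all). TATAAA was found in 5 promoters of 4 genes, Apoa2, Apoa5, Apob and Apoe, against 13.6% of all promoters. Both Apoa5 promoters overlap and hold the same TATAAA, 31 or 56 bases before the start. It stood 60 bases before the start in Apob, 96 in Apoe and 212 in Apoa2. A match describes letters in this window and not a bound site. Only these exact letters were searched, so a promoter without a match may still hold a near variant of a motif.

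Values are log2 probe set summaries, on which a difference of 1 is a doubling of the signal, and levels of different probe sets are not read as relative amounts of RNA. All differences are Mir137-/- minus Mir137+/+, with the standard error (SE) of the limma fit and p-values adjusted over all 45037 probe sets (Benjamini-Hochberg). A probe set was called where the adjusted p was below 0.05 and the fold change above 1.5. With 3 arrays against 3 an exact two-sided permutation test cannot go below p = 0.1. Since these are bulk samples, fewer cells of a type and less RNA per cell cannot be told apart.

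Some arrays stood apart in ways that the genotype label does not name. Xist, an RNA of the inactive X chromosome in females, read 3.66 to 4.24 on the 3 Mir137-/- arrays, against 3.94, 10.91 and 10.81 on Mir137+/+ replicates 1, 2 and 3, although the methods name male mice. The Y-linked Eif2s3y read 8.46 to 8.62 in Mir137-/-, against 8.59, 2.06 and 2.51 on Mir137+/+ replicates 1, 2 and 3, and Kdm5d 6.49 to 6.94 in Mir137-/-, against 7.23, 1.77 and 2.04. By these transcripts all 3 Mir137-/- livers and Mir137+/+ replicate 1 were male, and Mir137+/+ replicates 2 and 3 female. Exocrine pancreas markers (10 genes, mean log2 level) were high on replicate 2 of both genotypes, at 8.98 in Mir137-/- and 7.72 in Mir137+/+, and lay between 4.86 and 5.05 on the other 4 arrays. Skeletal muscle markers (12 genes) averaged 8.02 on Mir137-/- replicate 1 and 3.89 to 4.14 on the other arrays. None of 9 hepatocyte markers was called. Their mean levels were 12.60 to 12.75 in Mir137-/- and 12.72 to 12.78 in Mir137+/+, with all 9 gene means above the array medians. Alb, Ttr, Serpina1c, Ahsg and Hpx had mean levels of 13 or more, where values hardly vary. The markers below that level differed by -0.11 (Fgb), -0.30 (Cps1), -0.34 (Hnf4a) and 0.09 (Tat). Of 42 markers of Kupffer, stellate, endothelial, erythroid and fat cells 2 were called, both lower. These were Lrat of the stellate list and Car3 of the fat list. Over all genes read by the brightest probe set, 5.56% were called. Car3 read 10.60, 9.96 and 10.51 in Mir137-/- and 12.15, 12.06 and 11.98 in Mir137+/+. In the same list Adipoq read 2.25 to 4.62 and Lep 3.10 to 3.23 over the 6 arrays. Which cells the Car3 signal came from was not tested.

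Across the 16 probe sets, Apoa4 was strongly higher, Apoc3 lower and 1 of 2 Apob probe sets slightly higher in Mir137-/- liver, while the other 12 probe sets were not called (4.52% of all probe sets were called in either direction). That is 3 probe sets called higher (both of Apoa4 and 1 of Apob), against 1.94% of all probe sets, and 1 called lower, against 2.58%. In 7 of the 10 genes no probe set was called. The median difference over the 16 was 0.028, beside 0.010 over all probe sets. In 8 probe sets of 5 genes (Apoa4, Apoa5, Apob, Apoc3 and Apom) the genotypes did not overlap, 7 of them higher in Mir137-/-, against 27.5% of all probe sets without overlap in either direction and 13.6% higher. Every member was bright: the dimmest had a mean level above that of 95.7% of all probe sets.

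**Figure D1:**
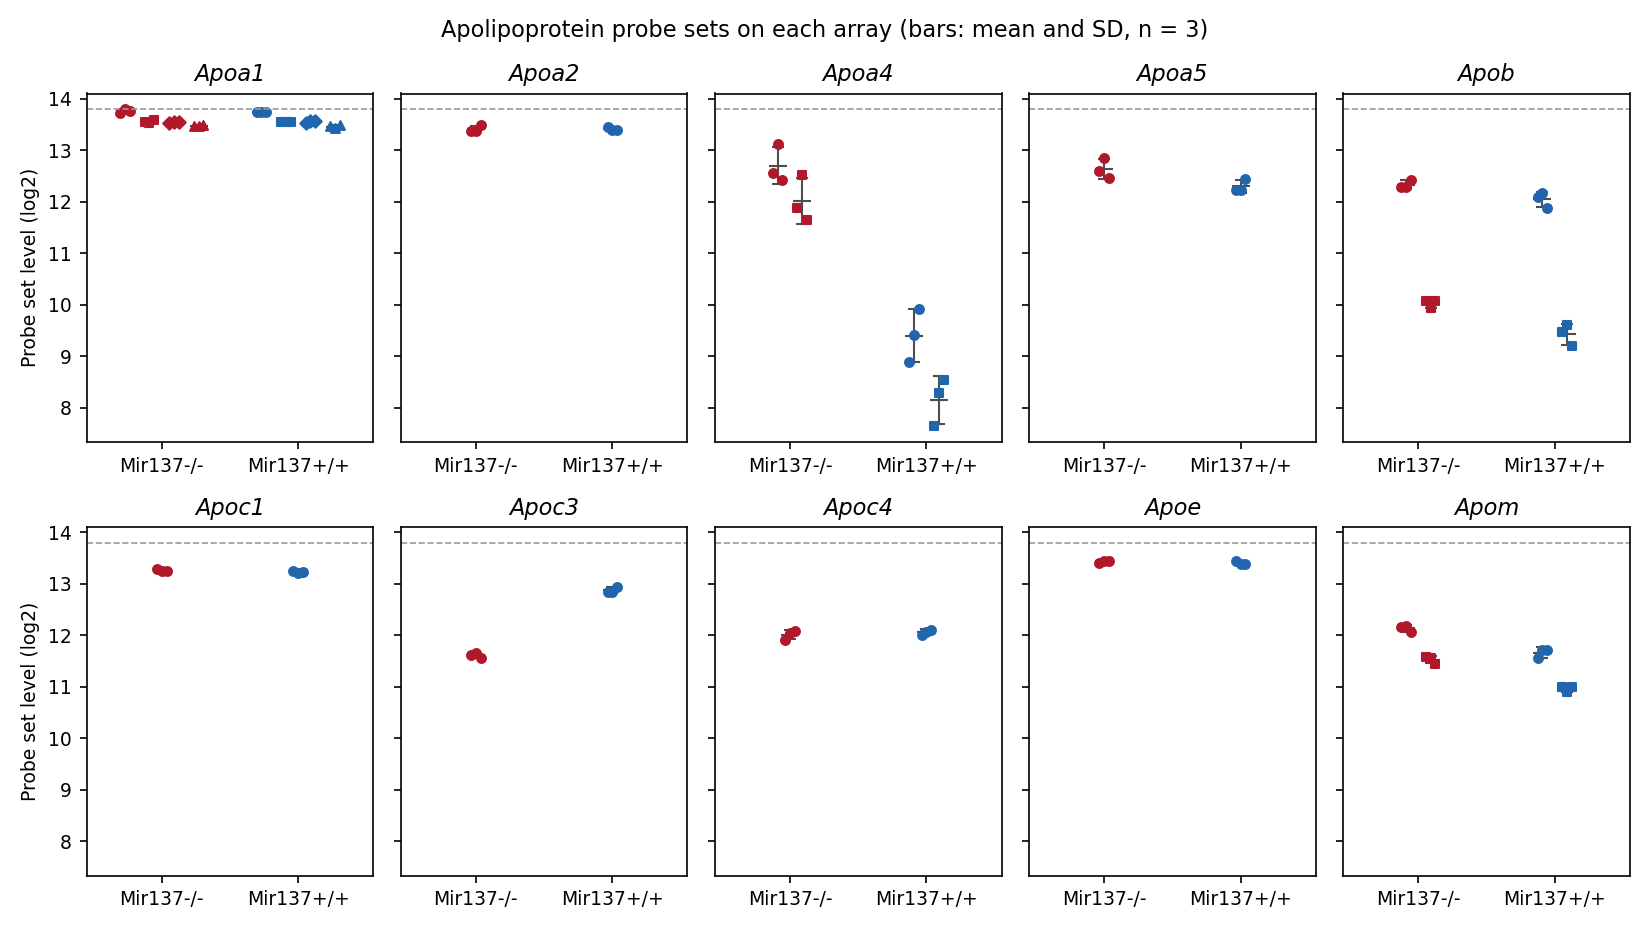
Log2 level of each apolipoprotein probe set on the 6 arrays, Mir137-/- left (red) and Mir137+/+ right (blue), 1 marker shape per probe set of a gene, with the mean and SD of 3 arrays and a dashed line at the highest value of the table (13.79). The groups lie far apart for Apoa4 and Apoc3, and those of Apoa1, Apoa2, Apoc1 and Apoe sit close under the dashed line in both genotypes.

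Apoa4, a lipid-binding apolipoprotein made by intestine and liver, had the largest difference of the 10 genes. Its probe set 1436504_x_at read 12.56, 13.11 and 12.43 in Mir137-/- and 8.88, 9.41 and 9.91 in Mir137+/+. The other, 1417761_at, read 11.88, 12.52 and 11.64 in Mir137-/- and 7.64, 8.29 and 8.54 in Mir137+/+. Every Mir137-/- array was above every Mir137+/+ array on both probe sets, and both put the 6 arrays in the same order. The differences were 3.30 (SE 0.26, adjusted p = 3.96e-04) and 3.86 (SE 0.27, adjusted p = 2.45e-04), or 9.85-fold and 14.5-fold. Of the 881 probe sets with a mean level between 10 and 11 and the 445 between 11 and 12, these were the highest differences in each range.

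The Apoa4 values also varied more within a genotype than those of the other members, with SDs of 0.36 and 0.46 in Mir137-/- and 0.52 and 0.47 in Mir137+/+. Mir137-/- replicate 2, the array with pancreas transcripts, was the highest and Mir137+/+ replicate 1, the array without Xist, the lowest. Without replicate 2 of both genotypes the differences were 3.10 (adjusted p = 0.0133) and 3.67 (adjusted p = 0.0075). Against Mir137+/+ replicate 1 alone they were 3.82 (adjusted p = 0.0101) and 4.37 (adjusted p = 0.0113), so Apoa4 was called either way. With replicate 1 of Mir137-/-, where muscle markers were high, left out they were 3.37 and 3.92.

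Because Apoa4 is also an intestinal transcript, enterocyte markers were read beside it. Of 11 such genes 1 was called, Krt20, beside 5.56% of all genes by their brightest probe set. Krt20 is a keratin of gut epithelium, named after its value was seen. It read 4.81, 5.49 and 5.03 in Mir137-/- and 4.27, 4.49 and 4.39 in Mir137+/+ (difference 0.73, adjusted p = 0.0349). Fabp2, the fatty acid binding protein of enterocytes, was at 10.75, 11.09 and 10.78 in Mir137-/- and 10.79, 10.81 and 10.95 in Mir137+/+. The mean of the list was 5.15 to 5.24 in Mir137-/- and 5.04 to 5.16 in Mir137+/+, and 6 of its 11 genes, among them Cdx1, Cdx2 and Lct, lay below the median of the array on every array. The part of these transcripts in the Apoa4 values was not tested.

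Apoc3, an inhibitor of lipoprotein lipase and of remnant uptake, was the single member that fell. It read 11.61, 11.66 and 11.56 in Mir137-/- and 12.84, 12.84 and 12.94 in Mir137+/+. The groups lay more than 1 log2 unit apart, with an SD of 0.05 in Mir137-/- and 0.06 in Mir137+/+. The difference was -1.26 (SE 0.09, adjusted p = 2.71e-04), a level 2.40-fold higher in Mir137+/+. It was the lowest difference among the 198 probe sets with a mean level between 12 and 13. Without replicate 2 of both genotypes it was -1.31 (adjusted p = 0.0099), and against Mir137+/+ replicate 1 alone -1.23 (adjusted p = 0.0361).

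**Figure D2:**
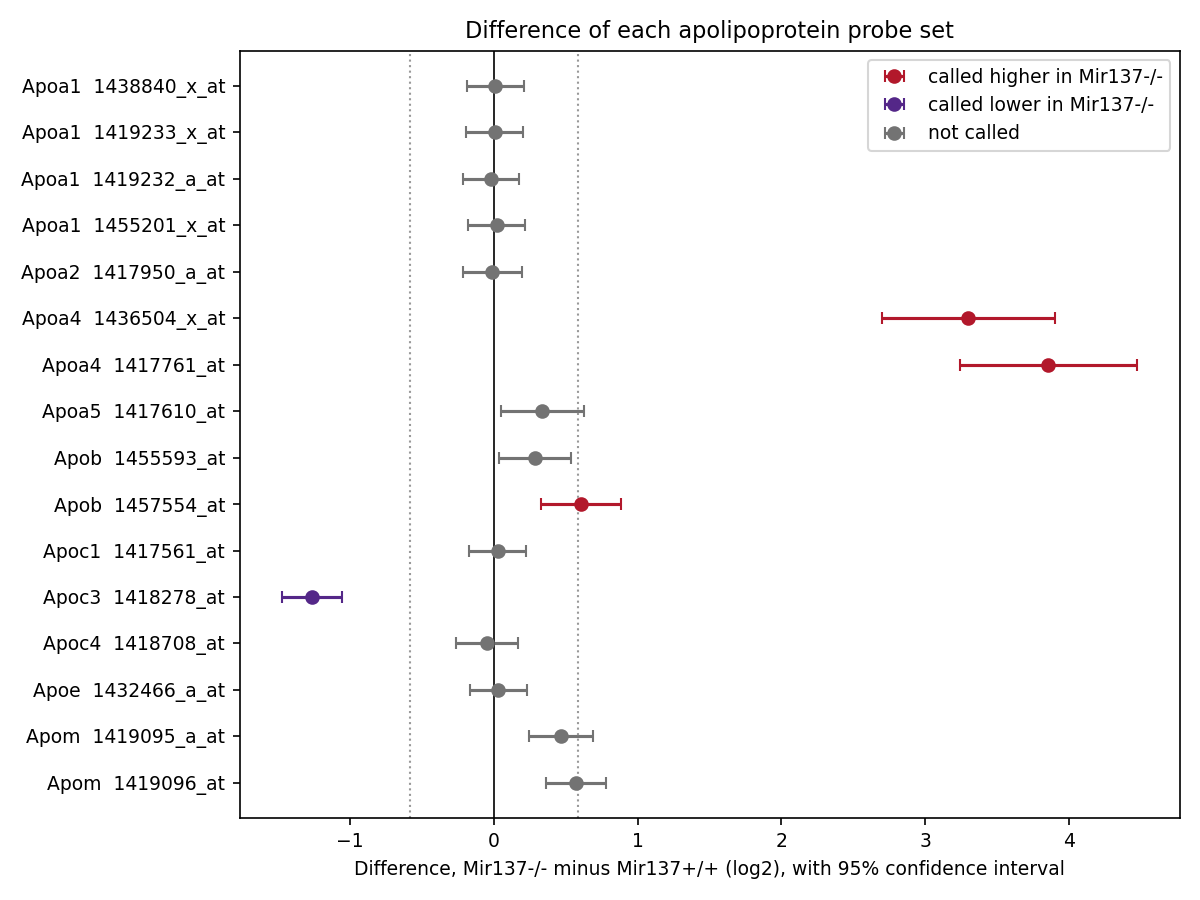
Difference of each apolipoprotein probe set (Mir137-/- minus Mir137+/+, log2) with its 95% confidence interval from limma, with dotted lines at 1.5-fold (0.585) in each direction. The intervals of Apoa4 (2.70 to 3.90 and 3.24 to 4.47) and Apoc3 (-1.47 to -1.06) lie wholly beyond those lines, and that of the called Apob probe set (0.32 to 0.88) spans one.

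The other 2 members of the chromosome 9 cluster were not called. Apoa1, the main protein of high density lipoprotein and an activator of cholesterol esterification, differed by between -0.02 and 0.02 on its 4 probe sets (adjusted p = 0.925 to 0.977), on values of 13.43 to 13.79 at the top of the scale. Apoa5, which promotes lipolysis, read 12.59, 12.85 and 12.46 in Mir137-/- and 12.23, 12.22 and 12.44 in Mir137+/+. These groups did not overlap, though by 0.02 only, and the difference of 0.34, in the direction of Apoa4, was not called (SE 0.13, adjusted p = 0.157, 95% interval 0.05 to 0.62).

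On chromosome 7 none of the members was called. Apoc1, which hinders receptor uptake and lipid transfer, was at 13.28, 13.25 and 13.24 in Mir137-/- and 13.25, 13.21 and 13.23 in Mir137+/+. Apoc4, a minor apolipoprotein of very low density lipoprotein, was at 11.91, 12.05 and 12.08 in Mir137-/- and 12.01, 12.07 and 12.11 in Mir137+/+. Apoe was at 13.41, 13.44 and 13.43 in Mir137-/- and 13.43, 13.38 and 13.38 in Mir137+/+. In all 3 genes the genotypes overlapped, with differences of 0.03, -0.05 and 0.03 and intervals that stayed within 0.27 log2 units of 0. Apoc2, the activator of lipoprotein lipase and the first gene of that cluster, is not among the 10. It read 11.76, 12.07 and 11.85 in Mir137-/- and 11.48, 11.27 and 11.52 in Mir137+/+, a difference of 0.47 that passed the adjusted p (0.0487) and stayed under 1.5-fold.

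**Figure D3:**
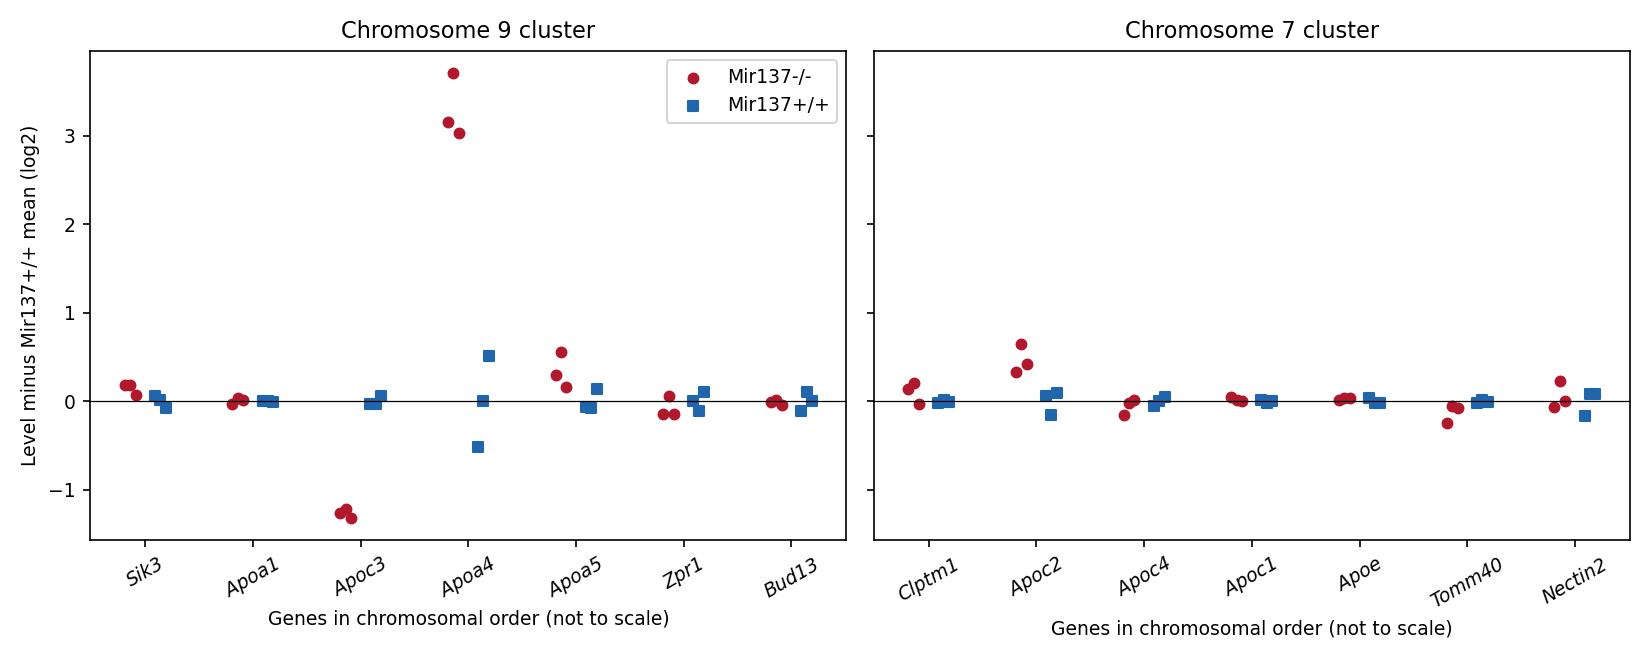
Level of each array minus the Mir137+/+ mean of that gene (log2) along the apolipoprotein clusters of chromosomes 9 and 7, with flanking genes, Mir137-/- as circles to the left of Mir137+/+ squares, 1 probe set per gene (the brightest). Apoa4 rises above and Apoc3 drops below their neighbours, while Sik3 (0.15), Zpr1 (-0.07), Tomm40 (-0.12) and Clptm1 (0.11) stay near 0.

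Of 23 measured genes beside the clusters and single genes, 0 were called, with differences from -0.45 to 0.40 and a median of 0.05 (limma, beside 5.56% of all genes called by their brightest probe set). The ends of that range lay beside single members and were named after their values were seen: Ldah, a lipid droplet hydrolase next to Apob, differed by -0.45 (adjusted p = 0.0307), and Bag6, next to Apom, by 0.40 (adjusted p = 0.079).

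Apob, the structural protein of very low density lipoprotein, was higher on both of its probe sets, and 1 of them was called. On 1457554_at it read 10.08, 9.93 and 10.07 in Mir137-/- and 9.47, 9.60 and 9.20 in Mir137+/+, a difference of 0.60 (SE 0.12, adjusted p = 0.0218) or 1.52-fold. On 1455593_at it read 12.29, 12.28 and 12.43 in Mir137-/- and 12.10, 12.16 and 11.88 in Mir137+/+, a difference of 0.29 (SE 0.11, adjusted p = 0.162). The genotypes did not overlap on either probe set. The call on 1457554_at lay just past both thresholds and was lost without any 1 of 4 arrays: Mir137-/- replicate 1 (0.58, adjusted p = 0.0673) or 3 (0.58, adjusted p = 0.0562), or Mir137+/+ replicate 1 (0.63, adjusted p = 0.0615) or 3 (0.49, adjusted p = 0.0699). It was also lost without replicate 2 of both genotypes (0.74, adjusted p = 0.0601) and against Mir137+/+ replicate 1 alone (0.56, adjusted p = 0.232).

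Apom, a carrier of sphingosine-1-phosphate on high density lipoprotein, passed the adjusted p on both probe sets and stayed under 1.5-fold. On 1419096_at it read 11.57, 11.56 and 11.45 in Mir137-/- and 10.99, 10.89 and 10.99 in Mir137+/+ (difference 0.57, SE 0.09, adjusted p = 0.0088, 1.49-fold). On 1419095_a_at it read 12.16, 12.17 and 12.06 in Mir137-/- and 11.55, 11.72 and 11.72 in Mir137+/+ (difference 0.47, SE 0.10, adjusted p = 0.0244, 1.38-fold). No array of 1 genotype reached into the other. By adjusted p alone 6 of the 16 probe sets passed, against 7.73% of all, and 5 of them were higher, against 3.37%. With Mir137-/- replicate 3 left out (0.61), or replicate 1 (0.59) or 3 (0.59) of Mir137+/+, 1419096_at crossed the fold threshold and was called. Against Mir137+/+ replicate 1 alone its difference was 0.54 with an adjusted p of 0.24.

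Apoa2, the second protein of high density lipoprotein, was at 13.37, 13.37 and 13.48 in Mir137-/- and 13.45, 13.40 and 13.40 in Mir137+/+. Like Apoa1, Apoc1 and Apoe it lay at the bright end of the array, where values hardly vary. These 4 genes hold 7 of the 30 probe sets with a mean level of 13 or more, and all their values fell between 13.21 and 13.79, the top of the table. The brightest, 1438840_x_at of Apoa1, read 13.72, 13.79 and 13.76 in Mir137-/- and 13.75, 13.75 and 13.74 in Mir137+/+, and it was the highest value of the whole array on 3 of the 6. Their differences ran from -0.02 to 0.03, with SDs of 0.006 to 0.064, against SDs of 0.05 to 0.52 for the other 9 member probe sets.

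That narrow spread was shared by the brightest probe sets of the array as a whole. The median SD within a genotype was 0.030 for the 30 probe sets at 13 or more, 0.061 for those from 12 to 13 and 0.164 for those from 2 to 4. Of the 30, 1 was called and is named after its value was seen, a probe set of Igfbp1, a hepatic binding protein of insulin-like growth factors, at 13.44, 13.45 and 13.47 in Mir137-/- and 12.67, 12.83 and 12.71 in Mir137+/+ (difference 0.72, adjusted p = 0.0030). No saturation flags were used here, so for Apoa1, Apoa2, Apoc1 and Apoe whether the scale still follows the amount of RNA was not tested. In the 3 genes with 2 probe sets the dimmer one gave the larger difference, by 0.56 for Apoa4, 0.32 for Apob and 0.10 for Apom.

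**Figure D4:**
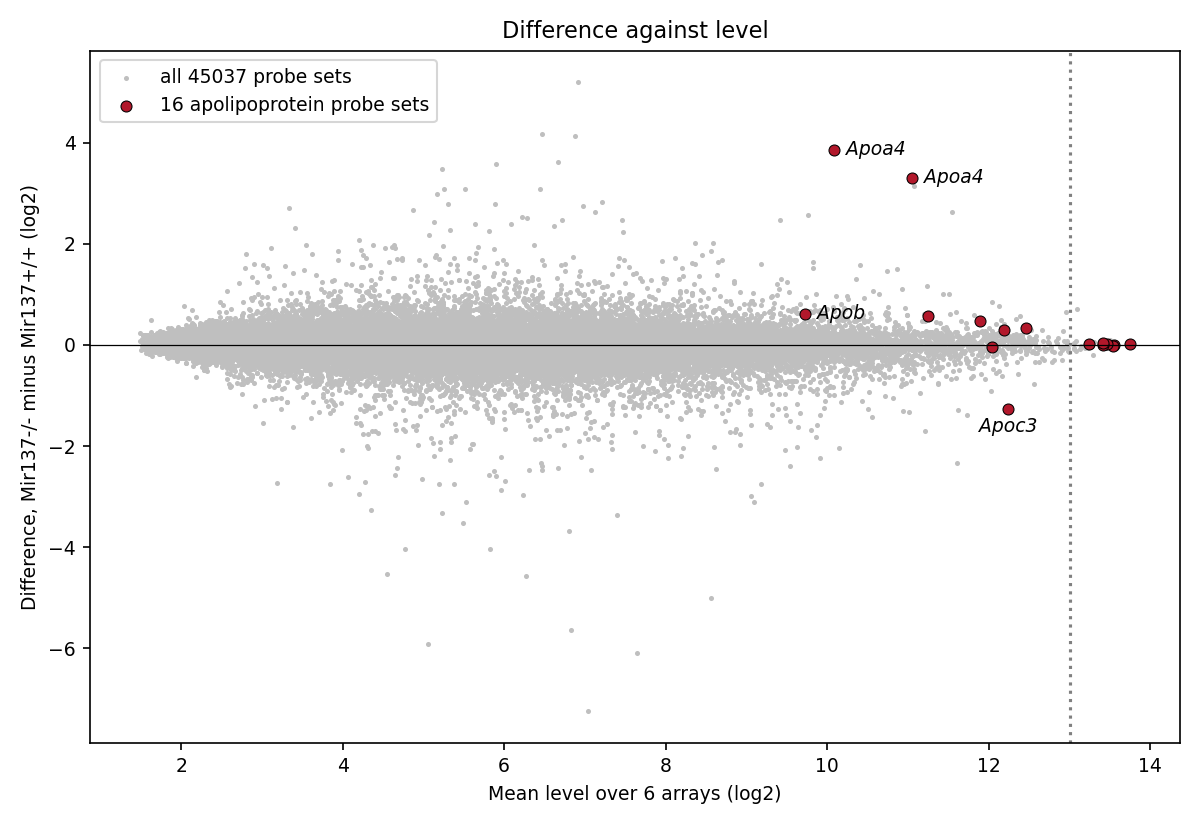
Difference (Mir137-/- minus Mir137+/+, log2) of all 45037 probe sets against their mean level over 6 arrays, with the 16 apolipoprotein probe sets in red, the called ones named, and a dotted line at a mean level of 13. To the right of that line the 7 probe sets of Apoa1, Apoa2, Apoc1 and Apoe lie between -0.02 and 0.03.

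The other genes of lipoprotein metabolism were read in 6 lists, each gene by its brightest probe set. Of 162 listed genes 143 were read, and 7 of these were called higher and 9 lower, beside 2.29% and 3.27% of all genes, with a median difference of -0.05. Against Mir137+/+ replicate 1 alone 5 of the 143 were called: Saa2, Saa4, Lrg1, Pcolce2 and Vldlr. By the methods' t-test with Benjamini-Hochberg adjustment 4 were called, Saa4, Lrg1, Pcolce2 and Lsr, with adjusted p between 0.0541 (Usf2) and 0.202 (Angptl8) for the other 12, and by treat, which tests against the 1.5-fold threshold itself, 3, Saa1, Saa2 and Vldlr. No transcription factor was called by any of these.

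In the list of 16 other genes, apolipoproteins by name or lipoprotein-bound proteins, 5 fell and 0 rose, with a median of -0.30. The list includes Apoo, Apool and Apol genes, whose place on lipoproteins was not tested here. Of the 5, 3 are known as acute phase proteins, Saa1, Saa2 and Lrg1. Saa4, a constitutive serum amyloid A, was at 9.94, 9.85 and 9.83 in Mir137-/- and 11.12, 10.80 and 11.03 in Mir137+/+ (difference -1.11, adjusted p = 9.9e-04). Saa1 differed by -2.48 (adjusted p = 0.0014) and Saa2 by -1.76 (adjusted p = 0.0018), though these near-identical paralogs were read by probe sets that can share transcripts. Lrg1, a leucine-rich plasma glycoprotein of the acute phase, differed by -1.13 (adjusted p = 0.0012), and Apol7a by -0.93 (adjusted p = 0.0056), the last named after its value was seen. Apoh, a phospholipid-binding plasma glycoprotein, differed by -0.04 (adjusted p = 0.829) and Apof, an inhibitor of cholesteryl ester transfer in humans, by -0.34 (adjusted p = 0.0589).

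None of 28 genes of lipoprotein assembly and secretion was called, with differences from -0.48 to 0.49 and a median of 0.03. The ends of that range, named after their values were seen, passed the adjusted p and stayed under 1.5-fold. These were Dgat2 (-0.48, adjusted p = 0.0287) and Tm6sf2 (0.49, adjusted p = 0.0224), and the genotypes did not overlap in either. Mttp, which loads lipid onto Apob, was at 10.23, 10.16 and 10.34 in Mir137-/- and 10.26, 10.41 and 10.19 in Mir137+/+, so the genotypes overlapped. Apobec1, which edits Apob mRNA to the short form, differed by 0.12 (adjusted p = 0.591).

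Among 17 genes of high density lipoprotein remodelling 2 rose and 0 fell (median -0.05). Pcolce2, an enhancer of procollagen processing that is also known to act on the maturation of Apoa1, was at 7.08, 7.15 and 7.22 in Mir137-/- and 6.03, 6.12 and 6.29 in Mir137+/+ (difference 1.0, adjusted p = 0.0012). Pdzk1, an adaptor that holds the receptor Scarb1 in place, differed by 0.86 (adjusted p = 0.0043). The central genes of the list were not called: the lipid exporter Abca1 (-0.06), the esterifying enzyme Lcat (-0.17), the transfer protein Pltp (0.06) and Scarb1 itself (-0.10), with adjusted p between 0.316 and 0.764.

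Of 22 genes of lipoprotein uptake and lipolysis 2 rose and 2 fell (median -0.04). Vldlr, a receptor for Apoe-bearing particles, was at 7.62, 8.23 and 7.51 in Mir137-/- and 5.38, 5.83 and 5.11 in Mir137+/+ (difference 2.35, adjusted p = 9.0e-04). Cd36, a fatty acid and lipoprotein scavenger receptor, rose by 0.63 (adjusted p = 0.0149). Lsr, a receptor for remnants, was at 9.03, 9.05 and 8.95 in Mir137-/- and 9.77, 9.87 and 9.79 in Mir137+/+ (difference -0.80, adjusted p = 0.0017), and Angptl8, a secreted regulator of lipoprotein lipase, differed by -1.18 (adjusted p = 0.0313). Lpl, the lipase that Apoc3 inhibits, differed by -0.21 (adjusted p = 0.192). The call of Angptl8 was lost without Mir137-/- replicate 1 (-1.27), 2 (-1.01) or 3 (-1.27) or Mir137+/+ replicate 1 (-0.99) or 2 (-1.05). That of Cd36 was lost without Mir137-/- replicate 2 (0.56) or Mir137+/+ replicate 1 (0.64) or 2 (0.55).

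Of 37 transcription factors known to act on apolipoprotein genes 3 rose and 2 fell (median -0.17). Nr1d1, a clock repressor whose loss raises Apoc3 in mice, was at 6.64, 6.73 and 6.65 in Mir137-/- and 6.24, 5.51 and 5.59 in Mir137+/+ (difference 0.89, adjusted p = 0.0217). Its 2 lowest values were those of Mir137+/+ replicates 2 and 3, the arrays with Xist, and replicate 1 lay closer to Mir137-/-. Whether Nr1d1 bears on the Apoc3 values was not tested. Nr0b2, a repressor induced by bile acids, differed by 0.78 (adjusted p = 0.0111) and Usf2, an E-box factor, by 0.60 (adjusted p = 0.0094). Nr1h4, the bile acid receptor, was at 8.40, 8.58 and 8.71 in Mir137-/- and 9.41, 9.32 and 9.31 in Mir137+/+ (difference -0.78, adjusted p = 0.0040). Cebpb, a factor of the acute phase response, differed by -0.68 (adjusted p = 0.0163).

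Factors best known for these genes were not called. Creb3l3, which raises Apoa4 in mouse liver, was at 9.45, 9.47 and 9.47 in Mir137-/- and 9.67, 9.61 and 9.71 in Mir137+/+, lower by 0.20 with an adjusted p of 0.227. Hnf4a, a driver of most of the 10 genes, differed by -0.34 (adjusted p = 0.113), Ppara by -0.22 (adjusted p = 0.232), the liver X receptor Nr1h3 by -0.34 (adjusted p = 0.117) and Foxo1, an activator of Apoc3, by -0.15 (adjusted p = 0.499). The genotypes did not overlap for Creb3l3, Hnf4a, Ppara and Nr1h3, as for 27.5% of all probe sets, and overlapped for Foxo1.

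Besides the other tests named above, single arrays decided some calls of that list. The call of Nr1d1 was lost without Mir137-/- replicate 1 (0.91), 2 (0.86) or 3 (0.91) or Mir137+/+ replicate 2 (0.76) or 3 (0.80). That of Cebpb was lost without Mir137-/- replicate 1 (-0.64) or Mir137+/+ replicate 1 (-0.70) or 2 (-0.62), and that of Usf2 without Mir137+/+ replicate 2 (0.53).

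**Figure D5:**
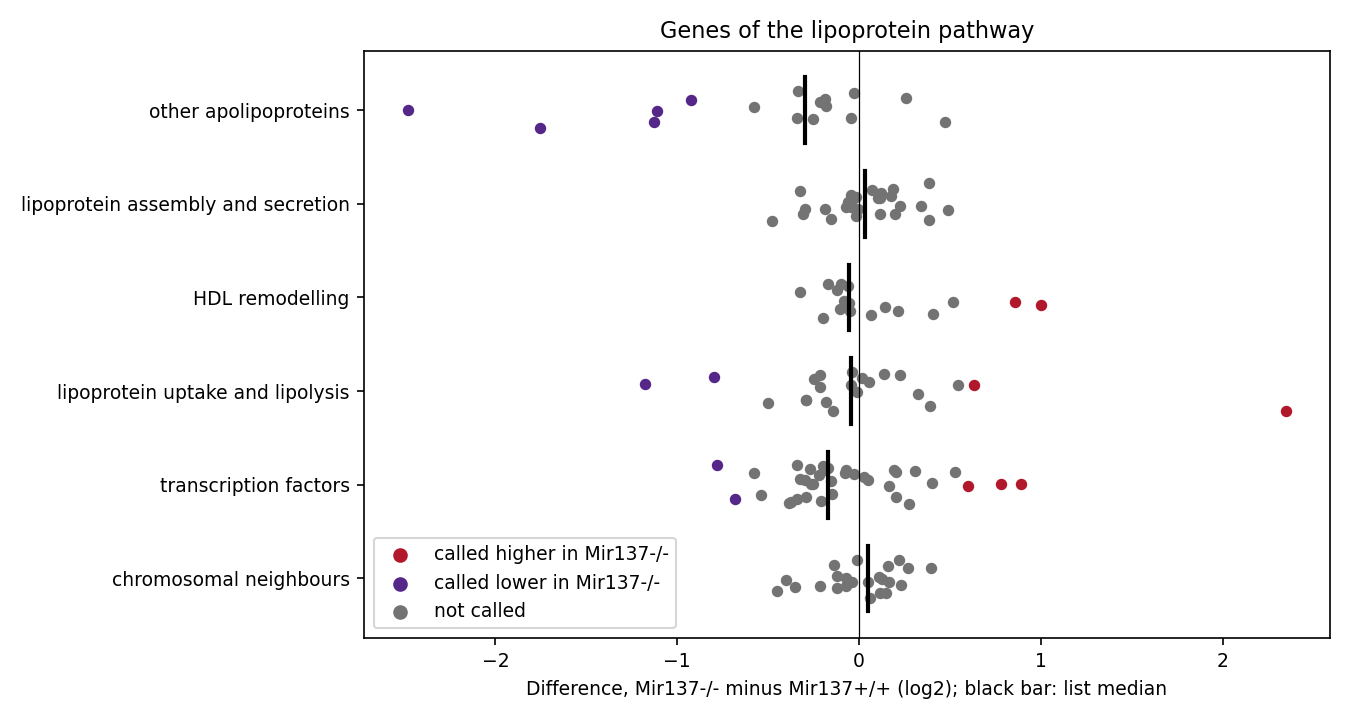
Difference of each measured gene (Mir137-/- minus Mir137+/+, log2) in 6 lists of lipoprotein metabolism and chromosomal neighbours, called genes in red (higher) and purple (lower), others grey, with a black bar at the list median. The points furthest out are Vldlr (2.35) and Saa1 (-2.48), and no gene of assembly and secretion or of the neighbours was called.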

How the data were processed

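Liver RNA was hybridised to a whole-genome Affymetrix mouse expression array. The authors deposited log2 values, 1 per probe set and array. For the step from probes to probe sets the methods give RMA with baseline-to-mean normalization and the submitters' processing notes give GCRMA, with no version. Array medians lay between 4.88 and 4.91, so the values were levels and were used unchanged. The array file definition and any filter are not given in the sources used here. Neither detection calls nor scanner flags were used, so the number of arrays limits the precision.

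The 64 control probe sets were left out. Of the other 45037, 34945 had 1 gene symbol in the platform annotation, 932 several and 9160 none, and symbols were updated by Entrez gene. Genotypes were compared with limma 3.58.1 in R 4.3.3 (lmFit on the group means, eBayes, no covariate, two-sided), with array weights from statmod 1.5.0 as an alternative, and the fit was tested on simulated data. Each gene outside the 10 was read by its brightest probe set (mean over all arrays), with p-values still adjusted over all probe sets. The members, lists and tests were chosen with earlier results of these data known. Genes named were all members, per list up to 4 called genes of smallest p in each direction, and a fixed set of well-known regulators; others are marked. Alternatives were another test (the methods' t-test, treat, eBayes with trend and robust), no fold threshold, quantile normalization, median centring, array weights, a filter on the 40% dimmest probe sets, no _s_at and _x_at probe sets, 1 value per gene, the replicate number as a block, sex read from Xist as a term, and arrays left out.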

Additional observations from a re-analysis of the deposited data

How the results depend on the processing

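Of 320 differences of the 16 apolipoprotein probe sets under alternatives, 288 kept their direction and side of the threshold, 10 lost a call, 6 gained one and 16 turned direction. Apoa4 was called in every alternative run, with differences of 3.04 to 3.82 and 3.60 to 4.37, and Apoc3 with -1.31 to -1.23. All 10 lost calls were of Apob 1457554_at, including the methods' t-test (adjusted p = 0.113), treat (adjusted p = 1.0) and sex as a term (difference 0.56). Apom 1419096_at gained a call with no fold threshold, after quantile normalization (0.60) and without 1 of 3 arrays. Called higher were 5 probe sets with no fold threshold, and 1 gene with the brightest probe set or the mean of all probe sets per gene, where there is 1 value per gene. Leaving out each array in turn gave 2 to 3 higher and 1 lower, and 13 to 16 called list genes. The 16 called list genes became 4 by the methods' t-test, 3 by treat, 25 with no fold threshold, 7 with sex as a term and 5 without the Mir137+/+ arrays with Xist. Where Xist arrays are left out, 1 Mir137+/+ array remains and is assumed to vary like the others. The sex term comes to the same contrast. No Mir137-/- array was female, so Mir137+/+ replicate 1 alone sets the difference, and the female arrays inform only the spread. The 320 differences and the 10 lost calls count both settings, so these are not independent checks.

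The differences that turned direction were small. Apoa1 turned to -0.0031 (1455201_x_at, quantile normalization), -0.0033 and -0.0067 (1438840_x_at and 1419233_x_at, median centring), -0.0050 (1438840_x_at, without the arrays with pancreas transcripts), and -0.0067 (1438840_x_at) and -0.012 (1419233_x_at) when Mir137-/- replicate 2 or 3 was left out. Once sex was a term, or the arrays with Xist were left out, Apoa1 1419232_a_at and Apoc4 turned to 0.0033 and Apoe to -0.0033. Apoa2 turned to 0.0083 without Mir137-/- replicate 1 or 2 and to 0.0067 without Mir137+/+ replicate 1, and Apoc4 to 0.0017 without Mir137-/- replicate 1. Mttp turned to 0.013 (mean of probe sets), 0.060 (without the arrays with pancreas transcripts) and 0.018 (without Mir137+/+ replicate 2), and Abca1 to 0.10 (mean of probe sets). Over all single arrays left out, Apoa1 1438840_x_at ran from -0.0067 to 0.028, Apoa2 from -0.047 to 0.0083, Apoc4 from -0.083 to 0.0017 and Mttp from -0.092 to 0.018. The cause was not tested.

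Over all 45037 probe sets 874 were called higher and 1162 lower. The methods' t-test called 196 and 279 after Benjamini-Hochberg, against 924 and 1210 at an unadjusted p below 0.05 and over 1.5-fold. Treat called 100 and 164, and 1517 and 1964 were called with no fold threshold. With sex as a term 289 and 353 were called, and 393 and 574 without the arrays with pancreas transcripts. Per gene 425 and 607 (brightest probe set) or 330 and 509 (mean) of 18193 were called. Whether the replicate number pairs the arrays was not settled: same-numbered arrays correlated at 0.081, 0.211 and 0.004 in their deviations. Mir137-/- replicates 1 and 2 correlated best with the Mir137+/+ array of their own number. Mir137-/- replicate 3 correlated best with Mir137+/+ replicate 1 (0.078). With the replicate block 2 member probe sets were called higher and 1 lower, Apob 1457554_at having an adjusted p of 0.0506, and 826 and 1091 of all.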
